A study of Mus musculus with 15 samples.

Results

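Smooth muscle contractile genes were followed in the lungs of mice exposed to the products of an osteosarcoma. They are 10 genes, Acta2, Actg2, Myh11, Myl9, Mylk, Tagln, Cnn1, Lmod1, Des and Pgm5, taken by name from the 46603 genes of the deposited count table. All 10 passed the filter on low counts, among 15870 genes that could be tested. The lungs came from athymic Swiss nude mice (Foxn1nu/nu), male or female and 8 to 12 weeks old, a strain that lacks a functional thymus and therefore mature T cells. All 3 groups share this genotype. The 6 SCR-treated mice received 25 µL per day of the concentrated secretome of 143B cells, a human osteosarcoma line, by intraperitoneal injection for 1 week. The 5 PT-bearing mice carried a primary tumour grown from 500000 luciferase-expressing 143B cells injected under the skin of the flank, and their lungs were taken at 50 to 60 mm3 of tumour volume, after about 8 to 10 days. The 4 CTR mice are described in the study both as vehicle-treated and as untreated, and the labels give them no treatment. Each lung gave 1 library from a separate mouse.

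Smooth muscle contracts when calcium and calmodulin activate myosin light chain kinase, which phosphorylates the regulatory light chain of myosin and lets the thick filament pull on actin. The genes of this apparatus are switched on together by serum response factor and its cofactor myocardin, which act at a DNA element called the CArG box. In the lung they mark the smooth muscle of airways and vessels, and some of them, Acta2 above all, are also expressed in myofibroblasts. The study stained lung sections for alpha-SMA, the protein of Acta2, as a marker of activated fibroblasts. It reported more alpha-SMA in SCR-treated and PT-bearing mice than in controls, both in sections and in fibroblasts cultured from the lungs. The question here is how the transcripts of Acta2 and of its program differed between the groups. Protein staining and RNA of whole lung are unlike measures, so the RNA values do not test the staining. In RNA from whole lung, fewer cells of a type and less RNA per cell cannot be told apart.

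Total counts were 12767431 to 22109856 per lung, and each member had at least 91 counts in every lung. Defining lung transcripts were abundant in all lungs, the surfactant gene Sftpc at 10900 to 32900 CPM, counts scaled to the depth of the library. CPM values carry a further scaling by the TMM method and compare lungs for 1 gene. Between genes, levels are compared only as RPKM, which are CPM divided by gene length. SCR lungs 1 to 3 stood apart from SCR lungs 4 to 6. Their summed CPM of 7 mesothelial markers was 81.0 to 166, against 323 to 451 in SCR lungs 4 to 6, 219 to 462 in CTR and 160 to 449 in PT lungs, so that on this sum they met the lowest PT lung. Their Scgb1a1, a gene of airway club cells, was 41500 to 102000 CPM against 24600 to 30900. Xist and Y-linked transcripts marked 4 lungs as female, numbers 4 and 6 of SCR and numbers 3 and 5 of PT, whereas the CTR lungs were all male. Results that rest on these lungs are given with and without them.

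The promoters are shown first for 3 members, because the CArG box is the element that the program shares. RefSeq windows (GRCm38.p6) of 250 bases before and 50 bases after the gene start were at hand for 7 of the 10 members, Acta2, Cnn1, Des, Lmod1, Mylk, Myl9 and Pgm5. The window of Mylk, chr16:34784700-34784999, lies at an internal start within the gene and not at its first base. Read on both strands, the CArG box was found in 1 of the 7 windows, that of Myl9, against 535 of 32851 windows of all genes (1.63%). The box of Myl9 begins 161 bases before the start. Allowing 1 G or C among its middle bases, a form chosen after the windows had been searched, added 2 boxes in Acta2, 84 and 34 bases before the start, and a further one in Myl9, 99 bases before it. That looser form was present in 2 of the 7 windows and in 2792 of all windows (8.5%). Pgm5, the single member called between groups, had neither form in its window. The windows read 5′ to 3′ on the strand of the gene, with both forms of the box in capitals. They lie at chr19:34255324-34255623 for Acta2 and chr19:24861793-24862092 for Pgm5, both on the minus strand, and at chr2:156775214-156775513 on the plus strand for Myl9.
Acta2: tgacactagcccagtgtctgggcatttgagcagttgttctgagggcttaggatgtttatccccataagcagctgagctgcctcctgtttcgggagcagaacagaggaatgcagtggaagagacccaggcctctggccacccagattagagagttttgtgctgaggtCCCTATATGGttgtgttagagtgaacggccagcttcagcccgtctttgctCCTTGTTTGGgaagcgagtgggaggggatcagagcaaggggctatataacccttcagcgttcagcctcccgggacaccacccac
Myl9: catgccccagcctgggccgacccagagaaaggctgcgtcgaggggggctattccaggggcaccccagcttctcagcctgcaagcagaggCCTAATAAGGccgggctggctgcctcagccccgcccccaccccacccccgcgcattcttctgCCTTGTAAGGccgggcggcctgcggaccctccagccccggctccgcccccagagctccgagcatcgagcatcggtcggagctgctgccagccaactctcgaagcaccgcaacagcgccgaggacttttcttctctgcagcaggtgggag
Pgm5: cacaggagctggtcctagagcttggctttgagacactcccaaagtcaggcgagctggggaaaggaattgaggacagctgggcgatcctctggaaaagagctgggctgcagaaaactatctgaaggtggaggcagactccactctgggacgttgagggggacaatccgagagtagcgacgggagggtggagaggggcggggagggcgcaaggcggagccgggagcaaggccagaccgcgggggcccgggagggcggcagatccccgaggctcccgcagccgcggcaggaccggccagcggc
A match describes the letters of a window and not the binding of a factor.

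In CTR lungs the members spanned from Tagln at 98.1 ± 13.8 RPKM to Lmod1 at 3.11 ± 0.985 RPKM (SD, n = 4). Acta2 with 86.7 ± 24.3 RPKM and Myl9 with 80.8 ± 15.8 RPKM followed Tagln, and the ranges of these 3 genes overlapped. Mylk at 38.3 ± 5.71 RPKM and Des at 37.9 ± 7.58 RPKM formed a second step, below Myl9 in 4 of 4 lungs and not separable from each other. Myh11 (20.4 ± 6.11), Cnn1 (18.2 ± 4.61), Pgm5 (16.6 ± 0.588) and Actg2 (13.4 ± 4.34), all in RPKM, formed a lower step in which each neighbour overlapped the next. Tagln lay at the 97.3rd percentile of all tested genes by RPKM and Lmod1 at the 35.4th.

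**Figure D1:**
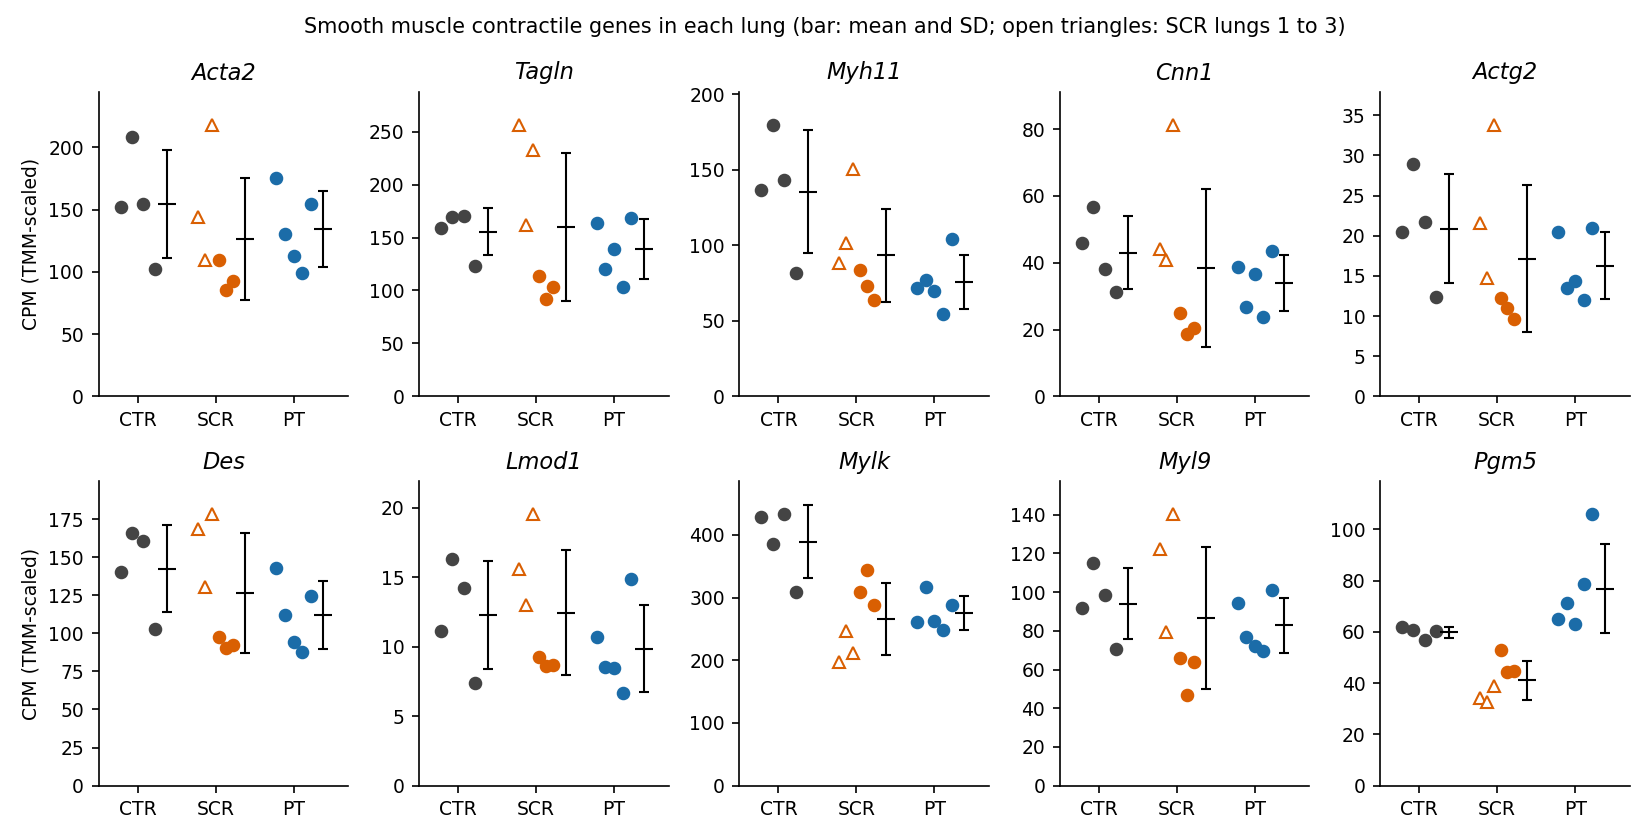
CPM of each member in each lung by group, on linear axes that start at 0. Points are lungs, open triangles are SCR lungs 1 to 3, and bars give the mean and SD of 4 CTR, 6 SCR and 5 PT lungs. For most members the SCR lungs fall into a high and a low set, while Pgm5 lies at 32.5 to 52.8 CPM in SCR, 56.9 to 61.9 in CTR and 63.3 to 106 in PT lungs.

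Across the 10 members, 1 gene passed the adjusted test in 1 comparison, Pgm5 in PT against SCR. The quasi-likelihood test of edgeR was run across all 15870 genes, and a call required a Benjamini-Hochberg adjusted p under 0.05. In SCR against CTR no member was called, where 0.113% of all genes were. In PT against CTR no member was called, where 0.0% of all genes were (1216 genes had an unadjusted p under 0.05, DESeq2 called 20 genes and limma 3). Between PT and SCR, Pgm5 was 1 of 6 genes called (0.0378% of those tested). At an unadjusted p under 0.05, Myh11, Mylk and Pgm5 were lower in SCR than in CTR, 3 of 10 members against 10.2% of all genes. In PT against CTR, Myh11 and Mylk were lower at that threshold, 2 of 10 members against 4.73% of all genes, and Pgm5 was higher, 1 of 10 against 2.93%. Pgm5 was also the only member under it between PT and SCR, 1 of 10 against 6.19% of all genes that were higher. The members had a median log2 fold change of -0.23 between SCR and CTR, of -0.33 between PT and CTR and of -0.12 between PT and SCR, where all genes had 0.01, 0.01 and -0.01. Single lungs moved these medians by over 1.5 times. Between SCR and CTR the median was -0.09 without CTR lung 2, -0.37 without CTR lung 5, -0.50 without SCR lung 3, and -0.14 and -0.13 without SCR lungs 5 and 6. Between PT and CTR it was -0.16 without CTR lung 2. The median between PT and SCR ran from -0.22 without SCR lung 6 to 0.06 without SCR lung 3, where it changed sign. SCR and PT were each compared with the same 4 CTR lungs, so both comparisons move together with those lungs.

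**Figure D2:**
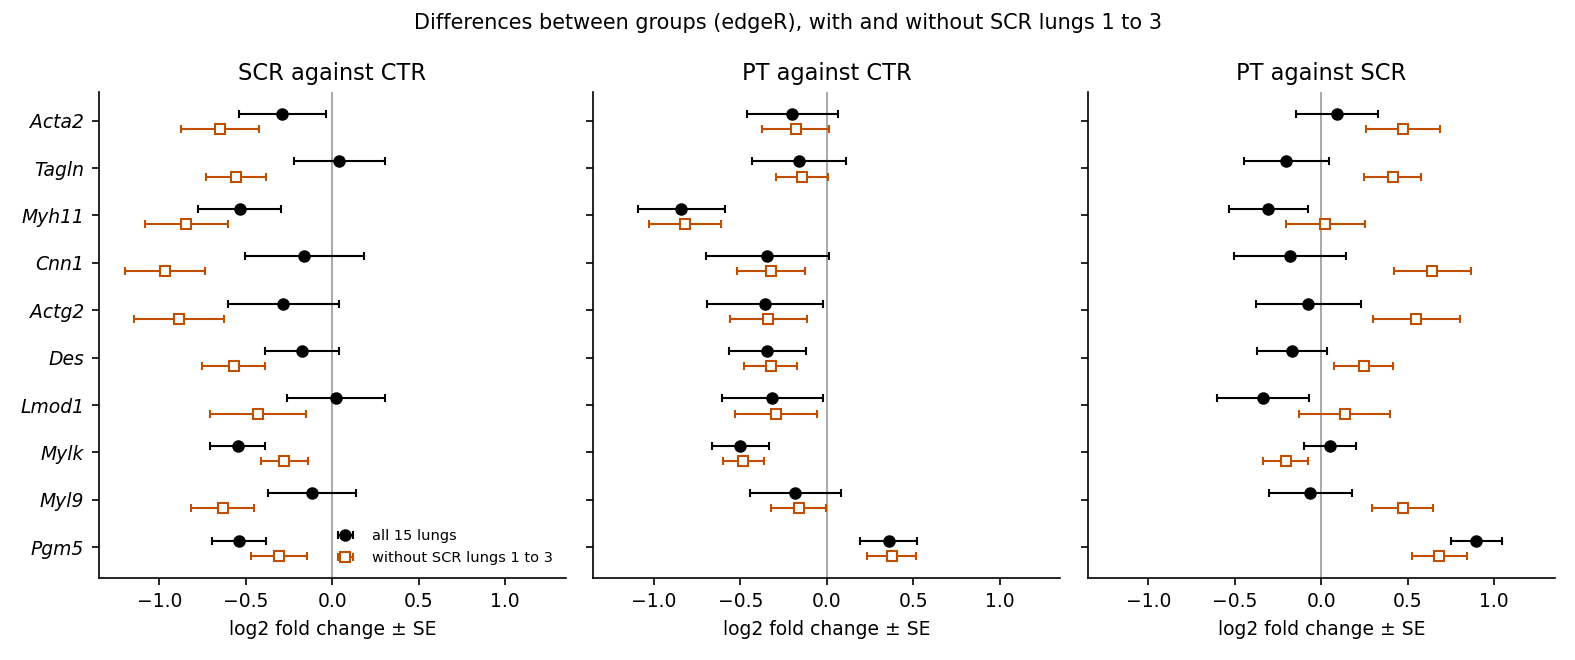
Log2 fold changes with their standard errors from edgeR for the 10 members in 3 comparisons, with all 15 lungs (filled circles) and without SCR lungs 1 to 3 (open squares). With all lungs, the values in SCR against CTR run from -0.55 to 0.04, and without those lungs from -0.97 to -0.28.

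Acta2 encodes alpha-SMA, the actin of vascular smooth muscle and of myofibroblasts (ENSMUSG00000035783, chromosome 19, 34241090 to 34255336 of GRCm38, minus strand). It was at 152, 208, 155 and 102 CPM in CTR lungs 1, 2, 4 and 5, and at 175, 131, 113, 99.5 and 155 CPM in PT lungs 1, 2, 3, 5 and 6. In SCR lungs it ranged from 85.4 to 218 CPM with a median of 110. The 3 groups overlapped, and the highest lung of all was SCR lung 3. The log2 fold change was -0.29 ± 0.25 (SE) for SCR relative to CTR (edgeR adjusted p = 0.567), -0.20 ± 0.26 for PT relative to CTR (0.901) and 0.09 ± 0.24 for PT relative to SCR (0.928). None of these differences exceeded the spread between lungs, and their size rested on single lungs. In SCR against CTR the value was -0.11 without CTR lung 2, -0.44 without CTR lung 5 and -0.51 without SCR lung 3 (unadjusted p = 0.027, edgeR adjusted p = 0.320), and without SCR lungs 1 to 3 it was -0.65 ± 0.22 (unadjusted p = 0.012, adjusted 0.458). For PT relative to CTR it was -0.02 without CTR lung 2 and -0.35 without CTR lung 5.

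Actg2, the actin of enteric and other visceral smooth muscle (chromosome 6, 83512905 to 83536265, minus strand), had 133 to 471 counts per lung, among the fewest of the members. It lay at 12.4 to 28.9 CPM in CTR, 9.65 to 33.8 in SCR lungs and 11.98 to 21.0 in PT lungs. Relative to CTR, the log2 fold change was -0.28 ± 0.32 for SCR and -0.36 ± 0.34 for PT (edgeR adjusted p = 0.669 and 0.849). The muscle actins have nearly the same coding sequence, and how the authors treated reads that fit several genes is not given in the sources used here, so the split of reads between Acta2, Actg2 and the other actins is uncertain.

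Myh11, the heavy chain of smooth muscle myosin and the member most restricted to that tissue, showed the lowest PT values against CTR (ENSMUSG00000018830, chromosome 16, 14194527 to 14291408, minus strand). It was at 137, 180, 144 and 81.8 CPM in the CTR lungs, and at 71.9, 77.2, 70.1, 54.7 and 104 CPM in the PT lungs. In SCR lungs it ranged from 63.7 to 151 CPM with a median of 86.2. PT lung 6 and CTR lung 5 kept the groups from separating. The log2 fold change was -0.84 ± 0.25 in PT against CTR (edgeR unadjusted p = 0.0040, adjusted 0.494) and -0.53 ± 0.24 in SCR against CTR (unadjusted p = 0.041, adjusted 0.248). The PT to SCR value was -0.31 ± 0.23 (adjusted p = 0.651). Leaving out each lung in turn, the PT value ran from -0.68 without CTR lung 2 to -1.02 without CTR lung 5. The count of Myh11 reads per Tagln read, which needs no scaling for depth but moves with the balance of long and short genes in each library, was 0.662 to 1.06 in CTR, 0.345 to 0.795 in SCR lungs and in PT 0.438 to 0.643, so that PT and CTR lungs were just apart on it. With counts offset for gene length, PT differed from CTR by -0.81 for Myh11 and -0.32 for Tagln on the log2 scale. The main fit, scaled by TMM in place of the offset, gave -0.84 and -0.16.

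Myl9, the regulatory light chain that the kinase phosphorylates (chromosome 2, 156775420 to 156781658, plus strand), overlapped fully between the groups. It lay at 70.6 to 115 CPM in CTR, 46.8 to 140 in SCR lungs and 69.4 to 101 in PT lungs. Relative to CTR, SCR stood at -0.12 ± 0.25 and PT at -0.18 ± 0.26 on the log2 scale (edgeR adjusted p = 0.841 and 0.912).

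Mylk, the myosin light chain kinase itself, had lower values in most exposed lungs, without passing the adjusted test (ENSMUSG00000022836, chromosome 16, 34745210 to 35002420, plus strand). It was at 429, 385, 434 and 308 CPM in the CTR lungs and at 262, 317, 262, 248 and 288 CPM in the PT lungs. In SCR lungs it ranged from 198 to 344 CPM with a median of 267. CTR lung 5 lay among the exposed lungs, and the other CTR lungs lay above all of them. The log2 fold change was -0.55 ± 0.16 in SCR (unadjusted p = 0.0031, edgeR adjusted p = 0.119) and -0.50 ± 0.17 in PT against CTR (unadjusted p = 0.0079, adjusted 0.537), and 0.05 ± 0.15 in PT against SCR (adjusted p = 0.944). With DESeq2 the SCR value was -0.54 at an adjusted p of 0.037, past the threshold. Mylk is also expressed outside smooth muscle, where its long product acts in endothelium, and at an unadjusted p under 0.05, 7 of 10 endothelial markers were lower in SCR than in CTR (10.2% of all genes) and 6 of 10 lower in PT than in CTR (4.73%). Their part in the values of Mylk was not tested.

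Among the actin-binding regulators, Tagln (SM22, chromosome 9, 45929628 to 45936058, minus strand) was the most abundant. It was at 159, 169, 170 and 124 CPM in the CTR lungs and at 164, 120, 139, 104 and 169 CPM in the PT lungs. In SCR lungs it ranged from 92.2 to 257 CPM with a median of 138, which covered both other groups. The log2 fold changes were 0.04 ± 0.26 in SCR and -0.16 ± 0.27 in PT against CTR (edgeR adjusted p = 0.952 and 0.928). Tagln shares 108 exon bases with Pcsk7 on the opposite strand, and the strand setting of the counting is not given in the sources used here. Pcsk7 itself had 11232 counts over the 15 lungs and Tagln 35307.

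Cnn1, calponin, an inhibitor of the myosin ATPase (chromosome 9, 22099281 to 22109630, plus strand), had the widest spread of the members, with a 4.35-fold range over the 15 lungs and a biological coefficient of variation of 0.37, against 0.18 for Pgm5 and a median of 0.22 over all genes. It lay at 31.3 to 56.7 CPM in CTR, 18.7 to 81.4 in SCR lungs and 23.8 to 43.6 in PT lungs. Log2 fold changes relative to CTR were -0.16 ± 0.34 for SCR and -0.34 ± 0.36 for PT (edgeR adjusted p = 0.840 and 0.872). Lmod1, a leiomodin that nucleates actin filaments (chromosome 1, 135324807 to 135368065, plus strand), had 91 to 309 counts per lung. It lay at 7.40 to 16.3 CPM in CTR, 8.59 to 19.6 in SCR lungs and 6.69 to 14.9 in PT lungs. Against CTR it differed on the log2 scale by 0.02 ± 0.28 for SCR and by -0.32 ± 0.29 for PT (edgeR adjusted p = 0.975 and 0.849).

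Des, the intermediate filament protein desmin (chromosome 1, 75360329 to 75368579, plus strand), lay at 103 to 166 CPM in CTR, 90.4 to 178 in SCR lungs and 87.9 to 143 in PT lungs. On the log2 scale SCR differed from CTR by -0.17 ± 0.22 and PT by -0.34 ± 0.22 (edgeR adjusted p = 0.698 and 0.768). Desmin is also made by cardiac muscle, whose transcripts were present in every lung. Where that muscle lay, within the lung or outside it, cannot be told from these data. The summed CPM of 10 cardiac markers was 185 to 1090 in CTR, 148 to 723 in SCR lungs and 475 to 1230 in PT lungs, with none of the 10 at 0 in all lungs, and their part in the values of Des was not tested. The 10 skeletal muscle markers summed to 12.7 to 27.4 CPM in CTR, 11 to 36.3 in SCR lungs and 19.2 to 34.6 in PT lungs. Among them Ckm had 2.83 to 24.6 CPM, lowest in SCR lung 6 and highest in PT lung 6. The cardiac Actc1 was lowest and highest in the same lungs, at 28.7 and 206 CPM. Whether Ckm came from skeletal muscle was not tested. The myosin heavy chains Myh1 and Myh2 stayed under 0.5 CPM and Myh4 at 0 in every lung.

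Pgm5, a relative of phosphoglucomutase that lacks the enzyme activity, sits at adhesion sites of muscle (ENSMUSG00000041731, chromosome 19, 24683016 to 24861855, minus strand). In CPM it was the member that separated all 3 groups. It was at 61.9, 60.6, 56.9 and 60.2 CPM in the CTR lungs and at 64.9, 71.2, 63.3, 78.6 and 106 CPM in the PT lungs. The SCR lungs 1 to 6 had 34.02, 32.5, 39.03, 52.8, 44.3 and 44.6 CPM, with a median of 41.7. On this scale every SCR lung lay below every CTR lung, and every CTR lung below every PT lung. In the FPKM values normalized by the authors both exposed groups overlapped CTR. There PT lung 1 (16.52) lay below CTR lung 1 (16.6), and SCR lung 4 (14.73) above CTR lungs 2 and 4 (14.4 and 13.58). In PT against SCR the log2 fold change was 0.90 ± 0.15, a level 1.86-fold higher (edgeR adjusted p = 0.035), higher in 5 of 5 PT lungs than in any of 6 SCR lungs. Against CTR it was -0.54 ± 0.16 in SCR (unadjusted p = 0.0031, adjusted 0.119) and 0.36 ± 0.16 in PT (unadjusted p = 0.043, adjusted 0.635), and neither passed the adjusted test. Without PT lung 6 the PT value relative to CTR was 0.22 (unadjusted p = 0.166), and with sex in the model 0.32 (unadjusted p = 0.086). Per Mylk read, Pgm5 had 0.225 to 0.369 reads in PT, 0.131 to 0.195 in CTR and 0.129 to 0.184 in SCR lungs, and the PT lungs lay above all others. Mylk itself had lower values in PT than in CTR, and per Acta2 read Pgm5 had 0.370 to 0.790 reads in PT, 0.291 to 0.589 in CTR and 0.179 to 0.519 in SCR lungs, with all groups overlapping.

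The call of Pgm5 was close to the threshold, while its size was not tied to a single lung. Leaving out each of the 15 lungs in turn gave log2 fold changes of 0.75 to 0.98 in PT against SCR and adjusted p of 0.021 to 0.119, and the call was lost in 11 of the 15 fits. It was kept without CTR lung 5, SCR lung 4, SCR lung 6 or PT lung 3. Without SCR lungs 1 to 3 the value was 0.68 (adjusted p = 0.367), and in male lungs alone it was 1.11 (0.061). With DESeq2 the adjusted p was 7.5e-05, and with sex in the model 0.027. PT lung 6 had the highest Pgm5 and also the highest cardiac Nppa (33.9 CPM, against 0.28 to 11.8 in the other PT lungs and 0.0 to 2.25 in CTR and SCR lungs) and Actc1 (206 CPM). Without PT lung 6 the fold change of Pgm5 was 0.75 (adjusted p = 0.095). CTR lung 1, with the highest Myh6 of all lungs (420 CPM), had 61.9 CPM of Pgm5. In their median fold changes, the 10 cardiac markers had the same order of groups as Pgm5, while their summed CPM overlapped between all groups. In PT against SCR 10 of 10 were above 0 with a median log2 fold change of 0.73, relative to CTR 9 of 10 were above 0 in PT with a median of 0.49, and 8 of 10 were below 0 in SCR with a median of -0.24. The part of cardiac tissue in the Pgm5 values was not tested.

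**Figure D3:**
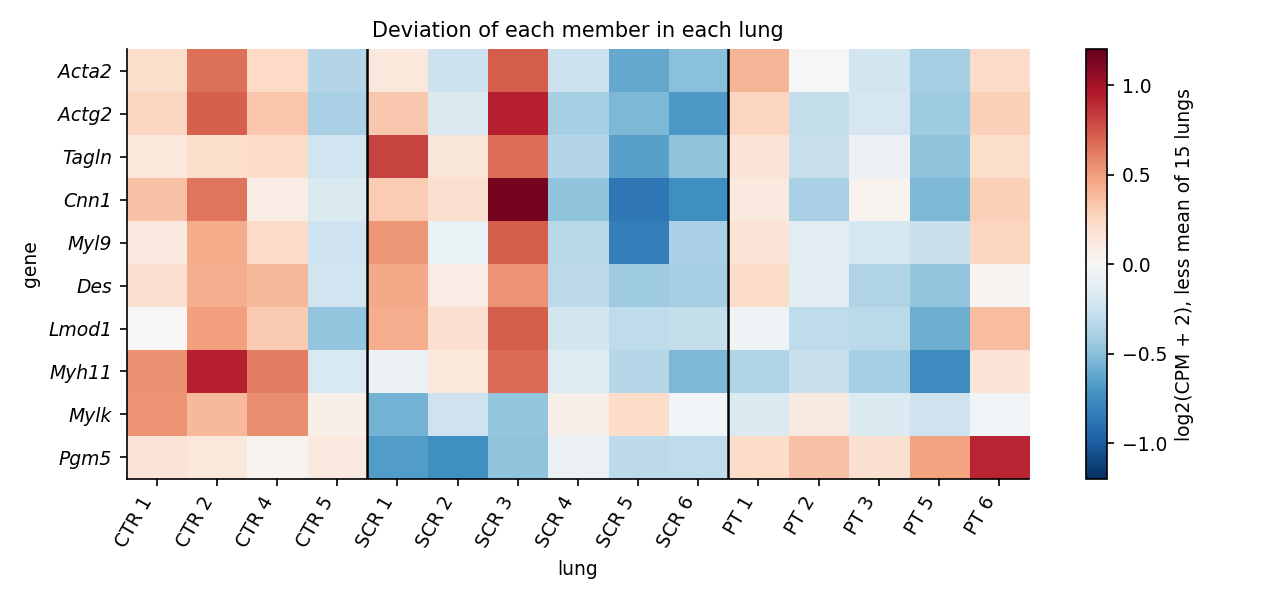
Deviation of each member from its own mean over 15 lungs, on the log2(CPM + 2) scale, with red above and blue below the mean and black lines between the groups. The upper 8 members share their high and low lungs, and Mylk and Pgm5 follow other patterns.

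The members did not vary as 1 block. Over the 15 lungs, 8 of the 10 followed the mean log2 CPM of all members closely, with Pearson r from 0.85 for Tagln to 0.98 for Actg2, while r was 0.09 for Mylk and 0.04 for Pgm5. These values describe lungs that share library and tissue piece, and each member is part of the mean. On deviations from the group means, r of the 8 was 0.90 to 0.98, that of Mylk -0.33 and that of Pgm5 -0.12. The 5 non-members most like the mean over all lungs were Fcgrt (r = 0.90), Gps1 (0.89), Apmap (0.89), Cog4 (0.89) and Eci2 (0.88). On deviations from group means they were Actr10 (0.94), the tropomyosin gene Tpm2 (0.93), Eci2 (0.92), the epithelial gene Epcam (0.92) and Gps1 (0.92). Of these only Tpm2 encodes a part of the muscle filament, and the list depended on scaling in that library size in place of TMM kept 3 of the 5.

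The split within the SCR group ran through nearly all members. Tagln averaged 217 CPM in SCR lungs 1 to 3 and 103 in SCR lungs 4 to 6, a ratio of 2.11. For Cnn1 the ratio was 2.60, for Actg2 2.13, for Myl9 1.94, for Lmod1 1.82, for Des 1.70, for Acta2 1.64 and for Myh11 1.55. Only for Acta2 did both sets meet, at 110 CPM in SCR lungs 2 and 4. Mylk and Pgm5 went the other way, with ratios of 0.698 and 0.744 and no overlap between the sets. These sets were not groups of the study, and they also differed in mesothelial and airway transcripts, whose part in these values was not tested.

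Without SCR lungs 1 to 3, the SCR lungs that remained were lower than CTR in all 10 members. The median log2 fold change was -0.60, against 0.02 for all genes. The lungs left out averaged 1.55 to 2.6 times SCR lungs 4 to 6 in 8 members. Leaving them out lowers SCR in those members in advance, so this fit cannot test whether the secretome lowered them. Mylk and Pgm5, which were lower in the lungs left out, moved from -0.55 and -0.54 to -0.28 and -0.31. In that fit 7 members had an unadjusted p under 0.05, where 5.41% of all genes were lower at that threshold, and none passed the adjusted test. Cnn1 had the largest difference, -0.97 ± 0.23 (edgeR unadjusted p = 0.00098, adjusted 0.426), followed by Actg2 at -0.89, Myh11 at -0.84, Acta2 at -0.65, Myl9 at -0.63, Des at -0.57 and Tagln at -0.56. SCR lungs 4 to 6 lay below every CTR lung for Tagln, Cnn1, Actg2, Des, Myl9 and Pgm5. Between PT and SCR the same fit turned the median to 0.44, with 1 gene called over all. There 6 members were higher at an unadjusted p under 0.05, where 5.28% of all genes were. The same lungs left out bear on this median too. The 8 members other than Mylk and Pgm5 varied together (median Pearson r of their pairs 0.87), so these counts are not of independent genes. SCR lungs 4 and 6 were female and SCR lung 5 male, while all CTR lungs were male.

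Sex, gene length and GC content moved with the same values. All CTR lungs were male, and with sex in the model the median of the members was -0.06 in SCR and -0.08 in PT against CTR, with Myh11 at -0.40 and -0.67. In male lungs alone the medians were -0.01 and -0.12. SCR lung 5 was marked male and was as low as the female SCR lungs, with 85.4 CPM of Acta2 against 92.3 and 110. Its sex signal was mixed, with 26.4 CPM of Xist, against 974 and 739 in the female SCR lungs and 0.079 to 0.22 in SCR lungs 1 to 3. PT lung 6, also marked male, had 7.31 CPM of Xist. In PT the female lungs lay below all male lungs for Acta2 (99.5 to 112.6 against 130.6 to 175.4 CPM), Myh11, Des, Lmod1 and Myl9. For Tagln, Cnn1, Actg2, Mylk and Pgm5 the sexes overlapped in PT. Mylk stayed at -0.62 and Pgm5 at -0.67 in SCR against CTR in male lungs alone (edgeR adjusted p = 0.100 and 0.086).

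Long genes were under-represented in some libraries. The median log2 deviation of the upper quartile of genes by length (5853 bases or more) less that of the lower quartile (2223 bases or less) was -0.56 in SCR lung 1, -0.34 in SCR lung 3 and -0.28 in PT lung 1, and -0.04 to 0.32 in the other lungs. Mylk is the longest member with 10159 bases and was lowest in SCR lungs 1 and 3, and Tagln, with 1586 bases, was highest there. Over the 15 lungs, Pearson r of log2(CPM + 2) with that length value of each lung was 0.78 for Mylk, 0.34 for Pgm5 and -0.05 for Myh11. For the other members it ran from -0.72 for Tagln to -0.48 for Acta2, with Lmod1 and Des both at -0.55. Myh11, with 6632 bases, was higher in SCR lungs 1 to 3 than in SCR lungs 4 to 6 (ratio 1.55), as were Lmod1 with 3948 and Des with 3754 bases, while Pgm5 with 3611 bases was lower. Counts were also offset for gene length in each lung, a correction chosen after seeing the data that takes the place of the TMM factors. Mylk was then -0.45 in SCR against CTR (edgeR adjusted p = 0.113) and Tagln turned to -0.16. The median of the members was -0.41, and Pgm5 in PT against SCR was 0.87 (adjusted p = 0.035). The same quartile difference by GC content ran from -0.31 in PT lung 3 to 0.50 in CTR lung 2. Its r with the members ran from 0.11 for Pgm5 to 0.59 for Acta2 and 0.60 for Des. With GC offsets the median of the members was -0.17 in SCR and -0.33 in PT against CTR.

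**Figure D4:**
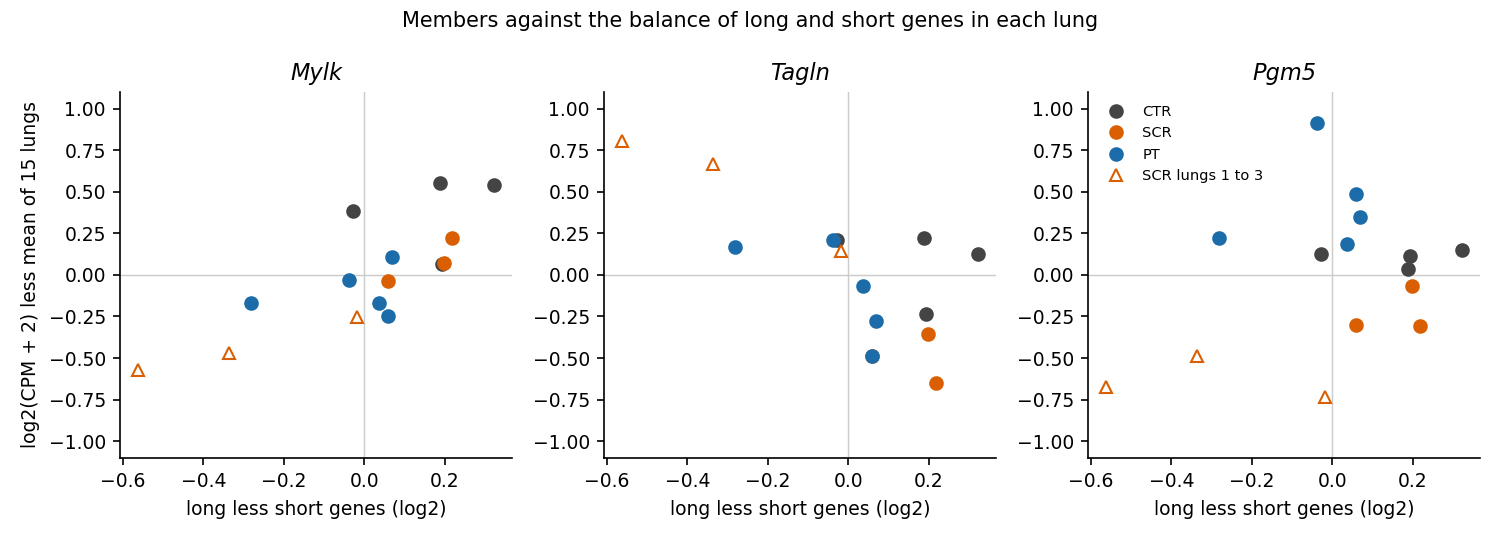
Mylk, Tagln and Pgm5 in each lung (log2(CPM + 2) less the mean of 15 lungs) against the median deviation of the upper less the lower quartile of genes by length in that lung (log2). Points are lungs coloured by group, and open triangles are SCR lungs 1 to 3. The lungs furthest to the left, SCR lungs 1 and 3 at -0.56 and -0.34, have the lowest Mylk and the highest Tagln.

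No gene of the other lists of the contractile pathway passed the adjusted test in any comparison. Of 23 partners in the filaments and their anchors, 9 were lower and none higher in SCR than in CTR at an unadjusted p under 0.05, and 8 were lower and none higher in PT. Of all genes, 10.2% were lower and 8.58% higher in SCR at that threshold, and 4.73% lower and 2.93% higher in PT. The partners had median log2 fold changes of -0.28 and -0.24. Flna, filamin A, which crosslinks actin, was lowest by p in SCR at -0.76 ± 0.16 (edgeR adjusted p = 0.072), and each SCR lung lay below each CTR lung. Myh10, a non-muscle myosin heavy chain, was below every CTR lung in both exposed groups, at -0.60 ± 0.17 in SCR (adjusted p = 0.112) and -0.69 ± 0.18 in PT (0.494). Between PT and SCR, 3 partners were higher in PT and none lower at the unadjusted threshold, where 6.19% of all genes were higher and 5.6% lower, led by Pdlim7, which links actin to other proteins, at 0.48 ± 0.13 (adjusted p = 0.162).

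Of 19 genes that signal to the light chain or handle calcium, 4 were lower and none higher at the unadjusted threshold in SCR, and 4 lower and none higher in PT, both against CTR, and 1 was higher in PT than in SCR. The shares over all genes were 10.2% lower in SCR, 4.73% lower in PT and 6.19% higher between PT and SCR, and 1 of 19 is close to the last. Ppp1r12b, a targeting subunit of the phosphatase that opposes Mylk, had the smallest p in both, at -0.51 ± 0.16 in SCR and -0.65 ± 0.17 in PT (edgeR adjusted p = 0.136 and 0.494). Atp2a2, the calcium pump of the sarcoplasmic reticulum in heart and smooth muscle, was at 0.45 ± 0.19 in PT against SCR (adjusted p = 0.367). Of 9 genes for serum response factor, its cofactors and regulators, 2 were lower and 1 higher in SCR than in CTR, where 10.2% and 8.58% of all genes were. In PT against CTR 1 was lower and 1 higher, where 4.73% and 2.93% were, and 3 were higher in PT than in SCR, where 6.19% were. The 1 of 9 higher in SCR is close to the share over all genes. Klf4, which represses contractile genes in smooth muscle, was at -0.96 ± 0.20 in SCR against CTR (adjusted p = 0.067), with every SCR lung below every CTR lung. Elk1, a ternary complex factor that competes with myocardin, was in PT 0.28 ± 0.12 above CTR and 0.39 ± 0.11 above SCR on the log2 scale (adjusted p = 0.623 and 0.175).

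Of 12 receptors that contract or relax smooth muscle, 11 could be tested, with 2 lower and 1 higher in SCR than in CTR at the unadjusted threshold, none in PT against CTR, and 2 lower in PT than in SCR, beside 10.2%, 8.58% and 5.6% of all genes. Ednra, the endothelin receptor of smooth muscle, was at -0.70 ± 0.20 in SCR and -0.44 ± 0.21 in PT against CTR (edgeR adjusted p = 0.119 and 0.653).

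Of the other 4 actin genes, 3 could be tested. At the unadjusted threshold 2 were lower in SCR than in CTR, where 10.2% of all genes were. None passed it in PT against CTR, and 3 were higher in PT than in SCR, where 6.19% of all genes were. The cytoplasmic Actg1 was at -0.58 ± 0.15 in SCR against CTR (edgeR adjusted p = 0.099), with each SCR lung below each CTR lung, and Actb at -0.37 ± 0.18 (0.283). In PT against CTR they were at -0.17 ± 0.15 (0.839) and 0.06 ± 0.19 (0.969). The cardiac Actc1 was at -0.68 ± 0.32 in SCR against CTR (adjusted p = 0.260) and 0.87 ± 0.30 in PT against SCR (0.269). The skeletal Acta1 had at most 2.65 CPM and was not tested.

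Markers of other cells that carry contractile genes or lie beside them were also measured, and none passed the adjusted test. Among 10 pericyte markers, 3 were lower in SCR and 1 in PT than in CTR at the unadjusted threshold, beside 10.2% and 4.73% of all genes, with Notch3 at -0.82 ± 0.19 and -0.62 ± 0.20 (edgeR adjusted p = 0.079 and 0.507) and Cspg4 at 0.37 ± 0.16 in PT against SCR (0.363). Of 3 genes for airway smooth muscle and alveolar myofibroblasts, Lgr6 was at -0.67 ± 0.27 in SCR and Hhip at -0.65 ± 0.29 in PT against CTR (adjusted p = 0.205 and 0.630). Of 10 markers of activated fibroblasts, 5 were lower in SCR and 1 in PT than in CTR, and 4 higher in PT than in SCR, beside 10.2%, 4.73% and 6.19% of all genes. All 10 had a PT to SCR log2 fold change above 0, with a median of 0.49. Col1a1 was at -1.53 ± 0.36 in SCR against CTR (0.084), Pdgfra at -0.49 ± 0.19 in PT against CTR (0.596) and Tnc at 1.29 ± 0.32 in PT against SCR (0.141). The summed CPM of the fibroblast list was 2150 to 3120 in CTR, 1790 to 1980 in SCR lungs and 2020 to 2650 in PT lungs. Of 10 endothelial markers, 7 were lower in SCR and 6 in PT than in CTR, beside 10.2% and 4.73% of all genes, with Cdh5 at -0.76 ± 0.17 in SCR (0.078) and Vwf at -0.81 ± 0.24 in PT (0.494), and a summed CPM of 4900 to 6890, 3720 to 4450 and 3830 to 5030. Of 10 cardiac markers, 1 was lower in SCR and 1 higher in PT than in CTR, beside 10.2% and 2.93% of all genes, and 1 of 10 is close to the first share. In PT against SCR 2 were higher, beside 6.19% of all genes, led by Nppa at 3.63 ± 1.19 (0.244). Of the skeletal muscle markers 6 of 10 could be tested, with 1 lower in SCR than in CTR and 2 lower in PT than in SCR. The shares over all genes were 10.2% and 5.6%. Of the cartilage markers 3 of 10 could be tested and none had an unadjusted p under 0.05, and the same held for the 7 mesothelial markers. Of 6 tested large-airway markers and of 5 lung markers, 1 each was higher in SCR than in CTR and lower in PT than in SCR. Of all genes, 8.58% and 5.6% were. These markers were Dnah5 at 0.60 ± 0.26 (0.237) and Scgb1a1 at 1.01 ± 0.37 (0.170) in SCR against CTR. None of these lists was tested as a cause of the values of the members.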

How the data were processed

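Total RNA of whole lungs (TRIzol, TruSeq, single-end NovaSeq reads) was measured in 15 libraries, 1 per mouse. The submitters' processing notes name cutadapt 1.15, Bowtie2 2.3.3.1, STAR 2.5.2b, SAMtools 1.5 and featureCounts 1.5.3. The authors deposited raw counts per gene, FPKM values that they had normalized within and between samples with EDASeq, and the GC content of each gene as a percent. The chromosomes of the members were taken from GENCODE M21 (GRCm38), and promoters from RefSeq (GRCm38.p6).

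From the counts, genes were filtered with filterByExpr, scaled by TMM and tested with edgeR 4.0.16 (R 4.3.3) by the robust quasi-likelihood test in 1 fit over all 15 lungs, with Benjamini-Hochberg adjustment over 15870 genes and a threshold of 0.05. Every p-value given without another tool, setting or set of lungs comes from that fit. The fits under other edgeR settings or on fewer lungs repeated the filter, the scaling and the adjustment, save for the step that a setting replaced. GC and length offsets took the place of the TMM factors, so those fits differ from the main fit in scaling as well. CPM, RPKM and ratios were computed with Python 3.11.15 and pandas 2.3.3. Likeness was Pearson's r on log2(CPM + 2) with the mean of the members, and the 5 highest non-members were named. The genes named were all members, the other actins and, of each other list, genes past the adjusted test (there were none) and the gene with the smallest p in a comparison. Single markers given for a level (Sftpc, Myh6, Ckm, Myh1, Myh2, Myh4, Aspn) were named after their values were seen. For 1 gene that this rule names, the result is not reported here. The members and lists were chosen with earlier results of these data known.

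Alternatives were DESeq2 1.42.0, limma 3.58.1 on log2(FPKM + 1) of these normalized values, an edgeR likelihood ratio test, other scalings and filters, sex, a replicate block, GC and length offsets, and fits without single lungs or without SCR lungs 1 to 3. Total counts of 12767431 to 22109856 set the precision of each lung. Same-numbered lungs of different groups came from different mice, and the correlations of their deviations ran from -0.441 to 0.441, so the numbers were not taken as pairs. Groups were taken from the treatment labels. The columns of all 15 lungs were used.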

Additional observations from a re-analysis of the deposited data

Results flagged for a closer look

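Pgm5 differed between the lungs of mice exposed in the 2 models. Its log2 fold change in PT against SCR was 0.90, with an edgeR adjusted p of 0.035, and this difference itself was tested. In CPM the PT lungs lay above and the SCR lungs below every CTR lung. In the deposited FPKM values both exposed groups overlapped CTR, while PT stayed above SCR. Among the 30 sets of 4 to 6 lungs in which each member was searched for a single distant lung, none held one, where chance gives about 1 in 20. With so few lungs per set, this search cannot exclude that a value rests on 1 lung. Without PT lung 6, Pgm5 in PT against CTR went from 0.36 to 0.22.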

How the results depend on the processing

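Of 420 member values under other settings, 386 kept their direction and side of the threshold, 26 changed sign, 6 lost the call and 2 gained it, and of 450 values without 1 lung 420 kept both, 19 changed sign and 11 lost the call. The cause of these shifts was not tested. Pgm5 in PT against SCR lost its call with library size only (0.94, edgeR adjusted p = 0.079), only the 2 groups compared (0.90, 0.113), SCR lungs 1 to 3 left out (0.68, 0.367), male lungs only (1.11, 0.061) and limma (0.71, 0.056), and DESeq2 added Mylk (-0.54, 0.037) and Pgm5 (-0.53, 0.049) in SCR against CTR.

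Genes called in SCR against CTR (18) numbered 361 with the likelihood ratio test, 600 with DESeq2, 42 with no filter, 33 with length offsets, 9 with GC offsets, 3 with upper quartile factors, 2 with limma, and 0 with library size only, with 2 groups only, in male lungs and without SCR lungs 1 to 3. Without single lungs they numbered 0 to 108. In PT against CTR (0) they numbered 12 with the likelihood ratio test, 20 with DESeq2, 3 with limma, 1 in male lungs and 0 to 3 without single lungs. Between PT and SCR (6) they numbered 185 with the likelihood ratio test, 231 with DESeq2, 19 with sex, 11 with no filter, with GC and with length offsets, 2 with limma, 1 without SCR lungs 1 to 3 and 1 to 96 without single lungs. Members under an unadjusted p of 0.05 in SCR against CTR (3) numbered 7 without SCR lungs 1 to 3, 1 with limma and 2 to 5 without single lungs, and in PT against SCR (1) 6 without SCR lungs 1 to 3. Library size kept 3 of 5 likeness genes, and the looser CArG box was in 2 windows in place of 1.

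With the replicate block, 0 genes were called in SCR against CTR, members under an unadjusted p of 0.05 numbered 1 in PT against CTR, Pgm5 in PT against SCR was 0.92 (edgeR adjusted p = 0.076), and Tagln and Lmod1 in SCR against CTR were -0.12 and -0.10. The numbers are not pairs by the labels.

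Signs that changed in SCR against CTR were those of Tagln with library size (-0.024), without SCR lungs 1 to 3 (-0.56) and with length offsets (-0.16), of Lmod1 with library size (-0.024) and without SCR lungs 1 to 3 (-0.43), of Cnn1 (0.12) and Des (0.0040) in male lungs, and of Myl9 with sex (0.015) and in male lungs (0.059). In PT against CTR they were those of Acta2 in male lungs (0.010) and Tagln with sex (0.06). Between PT and SCR without SCR lungs 1 to 3, Tagln was 0.41, Myh11 0.024, Cnn1 0.64, Actg2 0.55, Des 0.25, Lmod1 0.14, Mylk -0.20 and Myl9 0.47. Actg2 was 0.031 with library size and 0.0064 with sex, Myl9 0.040 with library size, and Mylk -0.022 with GC offsets and -0.063 with limma. Without single lungs, SCR against CTR ran from -0.13 to 0.16 for Tagln, -0.52 to 0.00015 for Cnn1, -0.16 to 0.19 for Lmod1 and -0.31 to 0.0073 for Myl9. PT against SCR ran from -0.025 to 0.32 for Acta2, -0.32 to 0.18 for Cnn1, -0.195 to 0.23 for Actg2, -0.035 to 0.13 for Mylk and -0.19 to 0.13 for Myl9.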

Other observations

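Mylk and Acta2, the kinase and the actin of the same program, took very different proportions in single lungs. The count of Mylk reads per Acta2 read was 1.85 to 3.02 in CTR, 0.971 to 4.02 in SCR lungs and 1.49 to 2.49 in PT lungs.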
